A study of Rattus norvegicus with 8 samples.

Results

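Genes that carry a cell through mitosis were examined in rat liver, in laser-cut samples of mature hepatocytes (MHs) and of clusters of small hepatocyte-like progenitor cells (SHPCs). The list held 59 genes of mitotic entry, the chromosomal passenger complex, the spindle checkpoint, anaphase, the kinetochore, the spindle, cytokinesis and chromosome structure, chosen by name. Of these, 55 had a probe under that name on the array, with 80 probes on 159 spots of an array that held 45598 distinct probes in all. Cenpe, Ncapd2, Ncapg and Spc24 had no probe under those names and were not analysed here. The groups were 2 samples of MHs, 3 of control SHPCs and 3 of SHPCs from livers transplanted with bone marrow-derived mesenchymal cells (BM-MCs). MHs and control SHPCs were both cut from recipient control livers. By the methods, all recipients were female F344 rats of a DPPIV-negative strain treated with retrorsine and partial hepatectomy (Ret/PH), and the BM-MCs were cultured from a male F344 rat and given through the spleen. The labels instead give the DPPIV+ F344 strain for all 8 samples. Which animal a sample came from, and the recipients' age, are not given in the sources used here for a sample. The p-values therefore measure the spread between these samples, and they would be too small where samples shared an animal.

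Retrorsine is an alkaloid that hepatocytes turn into a DNA-damaging product, after which they can grow but largely fail to divide. The SHPC clusters are the small hepatocytes that do expand in such livers after partial hepatectomy. Mitosis starts when the kinase Cdk1 pairs with cyclins A and B, and a transcription program that peaks late in the cell cycle supplies the kinases, kinetochore proteins and motors that the division needs. Quiescent hepatocytes of the adult liver keep most of these transcripts low.

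Expression was measured on 8 arrays of 1 slide, each with 100 ng of labelled RNA, and between 57.0% and 61.5% of the spots with marks on an array were well above background. Each level below is a log2 value relative to the 75th percentile of the array's signals, so 0 stands for that percentile, and it is the level of the brightest probe of the gene. Of 7 hepatocyte markers, Alb, Ttr, Apoa1, Hnf4a and Serpina1 lay well above the 75th percentile in every sample, such as Hnf4a at 3.46 to 3.89 and Ttr at 7.52 to 7.95. Cps1 was at 0.07 and 0.40 in MHs, and Tat at -0.53 and -0.51. The 5 mesenchymal markers listed for bone marrow cells had a summed level, in multiples of the 75th percentile, of 1.28 to 1.38 in control SHPCs and 1.27 to 1.35 in SHPCs with BM-MCs. Control SHPC replicate 2 had background marks for 19479 of the 58717 spots, so "not well above background" rests on the arrays with marks. The first set of arrays on the slide held the MHs and control SHPC replicates 1 and 2. The second held the BM-MC samples and control SHPC replicate 3.

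Many late cell-cycle promoters carry a cell cycle genes homology region (CHR), which the MuvB complexes bind, and CCAAT boxes, which NF-Y binds. RefSeq promoters of the GRCr8 build were at hand for 50 of the 59 genes, and the 250 bases before each start were searched on both strands for TTTGAA or TTCGAA (CHR) and for CCAAT. CHR letters stood in 27 of the 50 promoters (54%) and in 17.3% of all 27457 promoters in the table. Within the last 100 bases they stood in 22 (44%), against 6.12% of all promoters. CCAAT letters stood in 35 of the 50 (70%), against 34.3% of all, and 2 or more of them in 24 (48%), against 9.77%. Both motifs stood together in 24 (48%), against 6.22%. In 2 places over the 50 promoters a CHR and a CCAAT match shared bases. The promoters of 4 genes are shown because each belongs to the brightest gene with CHR letters in its role, for entry, checkpoint, anaphase and spindle in turn. Capitals mark CHR letters and CCAAT boxes in either orientation, and each sequence runs 5′ to 3′ along its gene and ends at the base before the RefSeq start.
Cdk1 (chr20:19265043-19265292, plus strand): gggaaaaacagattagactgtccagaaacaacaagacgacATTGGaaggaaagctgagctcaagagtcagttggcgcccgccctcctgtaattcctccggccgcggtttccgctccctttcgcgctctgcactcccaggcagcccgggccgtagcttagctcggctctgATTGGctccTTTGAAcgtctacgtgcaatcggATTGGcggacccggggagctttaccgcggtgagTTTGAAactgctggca
Bub3 (chr1:195760282-195760531, plus strand): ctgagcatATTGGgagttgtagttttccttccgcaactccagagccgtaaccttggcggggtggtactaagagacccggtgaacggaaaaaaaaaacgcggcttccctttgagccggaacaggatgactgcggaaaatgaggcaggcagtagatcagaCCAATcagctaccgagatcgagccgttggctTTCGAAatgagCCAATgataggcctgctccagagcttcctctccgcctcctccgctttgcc
Pttg1 (chr10:28406327-28406576, minus strand): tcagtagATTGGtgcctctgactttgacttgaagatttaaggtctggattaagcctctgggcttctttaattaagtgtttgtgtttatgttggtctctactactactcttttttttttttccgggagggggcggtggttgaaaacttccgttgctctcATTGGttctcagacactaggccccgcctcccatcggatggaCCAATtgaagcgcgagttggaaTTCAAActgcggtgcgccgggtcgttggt
Aspm (chr13:53625334-53625583, plus strand): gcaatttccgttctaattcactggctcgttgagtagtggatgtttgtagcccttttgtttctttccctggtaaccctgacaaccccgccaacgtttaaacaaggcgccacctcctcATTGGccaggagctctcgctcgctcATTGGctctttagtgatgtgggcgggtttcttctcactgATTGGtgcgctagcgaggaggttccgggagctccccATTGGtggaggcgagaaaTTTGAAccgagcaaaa
Each of the 4 held CHR letters near the start and at least 3 CCAAT boxes. Cdk1, Pttg1 and Aspm were far lower in MHs than in control SHPCs, while the 3 groups overlapped for Bub3 (values below). Among the members with a probe and a promoter in the table, the median log2 difference of control SHPCs over MHs was 2.03 for the 25 with CHR letters and 2.61 for the 21 without.

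**Figure D1:**
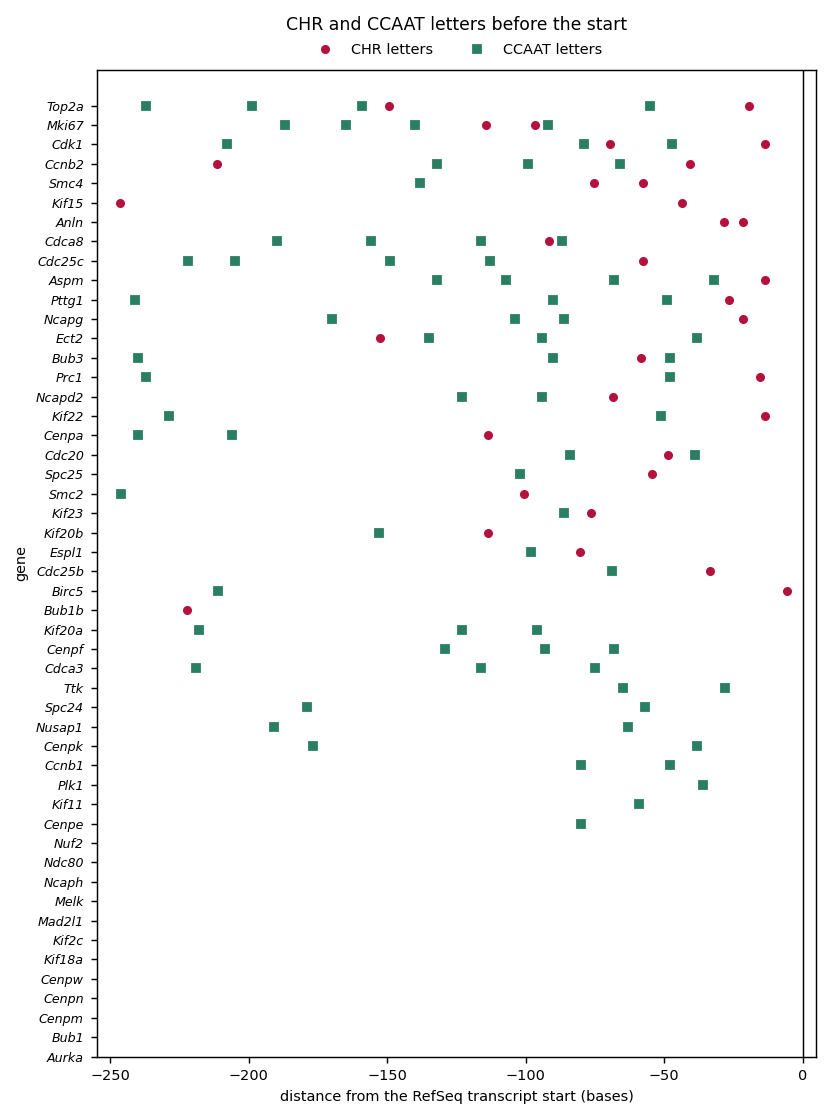
Positions of CHR letters (circles) and CCAAT letters (squares), on either strand, in the 250 bases before the RefSeq start of 50 mitosis genes. The x axis is the distance from the start in bases, and each line is a gene. CHR letters lay in 27 genes and CCAAT letters in 35, and 13 of the 27 had CHR letters within the last 50 bases.

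The first comparison asks how far the dividing clusters differ from the MHs of the same kind of liver. Transcripts of mitosis genes were higher in control SHPCs than in MHs, and the median difference was above 0 in each of the 8 roles. Of 54 members tested, 39 passed as higher (adjusted p under 0.05 from limma with Benjamini-Hochberg adjustment) and 0 as lower, where 0.917% of all 23111 probes tested passed as higher and 0.216% as lower. At an unadjusted p under 0.05, 50 were higher, against 8.21% of the probes tested. The median log2 difference over the 55 members was 2.50, from -0.10 to 3.83, and that over all probes tested was -0.03. In 51 members every control SHPC sample lay above both MH samples, as did 18.7% of the probes tested. On the measured signals 48 members were at least 2-fold higher, against 2.6% of the probes tested, 32 at least 4-fold and 13 at least 8-fold. Of the probes tested, 99.3% had a log2 difference of at most 2 (4-fold) and 99.8% of at most 3 (8-fold). In all, 8 members were not well above background in either MH sample, so their fold is a lower bound, set by the lowest signal well above background on each MH array. With those genes at their bounds the median log2 difference was 2.03. The members at least 2-fold higher then numbered 47, those at least 4-fold 28, and those at least 8-fold 10. Of the 39 that passed, 4 (Pbk, Bub1b, Kif2c and Cdca2) were among those dim in MHs, and so passed the filter on dim probes through the SHPC arrays. Of the 47 tested members well above background on an MH array 35 passed, where 0.789% of such probes did. The methods' t-test gave 50 higher before Benjamini-Hochberg adjustment, against 8.08% of the probes by that test, and 0 after it. With normexp correction and quantile normalization on 7 arrays the median over the tested members was 1.19 in place of 2.51, and the fold of 16 of the 28 members described in every sample moved by over 1.5 times. Where a fold with normexp is given below, it comes from those 7 arrays. The lower bounds hold only without normexp, since with it Pbk, Bub1b and Aurkb read 2.01-fold, 1.71-fold and 1.56-fold over MHs, below their bounds and against MH signals not well above background. Within the first set of arrays, control SHPC replicates 1 and 2 were above the MHs for 54 of 55 members, with a median log2 difference of 2.51. They were above the MHs for 43.0% of the probes tested, with a median of -0.06. Markers of other cells differed as well. The 6 Kupffer cell markers summed to 46.2 to 52.2 in MHs and 25.2 to 37.2 in control SHPCs, the 6 stellate cell markers to 5.84 to 5.99 and 4.36 to 4.72, and the 5 cholangiocyte markers to 0.286 to 0.354 and 0.418 to 0.462. At an unadjusted p under 0.05 from limma were 3 Kupffer cell, 3 stellate cell, 2 cholangiocyte and 2 bone marrow mesenchymal markers and 1 each of the sinusoidal endothelial, lymphocyte and erythroid lists. Of the stellate cell markers, Lrat and Reln had the lower and Col1a1 the higher mean in control SHPCs. The hepatocyte markers Apoa1, Cps1 and Tat were higher in every control SHPC sample than in both MHs, also at an unadjusted p under 0.05, while Hnf4a was lower in every control SHPC sample than in both MHs (unadjusted p = 0.24 from limma). No marker passed limma's adjusted threshold, and their part in the difference was not tested. A bulk signal does not tell fewer dividing cells from less RNA in each.

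**Figure D2:**
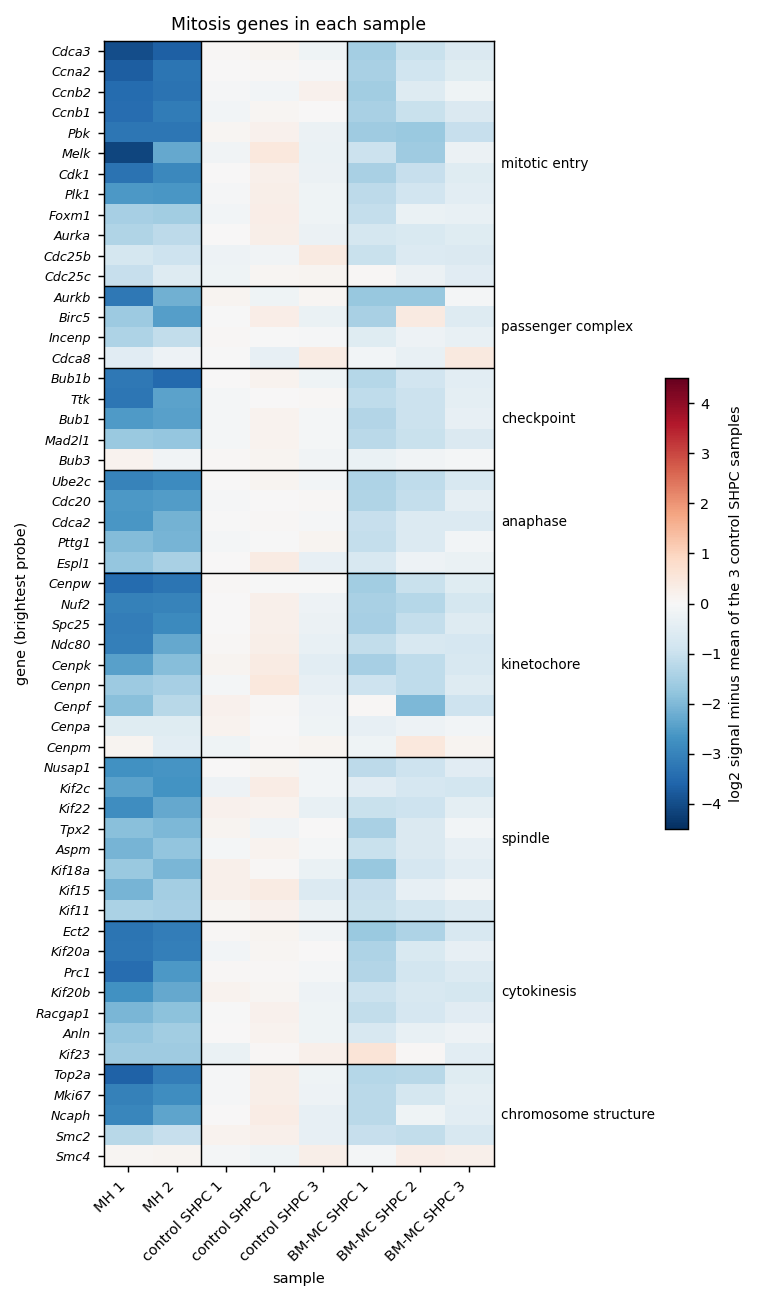
Level of each of the 55 members in each sample, as log2 signal minus the mean of the 3 control SHPC samples (colour, white at 0). Genes are grouped by role and ordered within a role by the difference between control SHPCs and MHs. MH columns are blue in all but a few genes. The BM-MC columns are a paler blue, which is deepest in BM-MC replicate 1 for most genes.

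The second comparison asks whether SHPC clusters differ when BM-MCs had been transplanted. Mitosis genes had lower levels in BM-MC SHPCs, as the SHPCs of transplanted livers are called from here on, than in control SHPCs, and no single gene passed the test. limma called 0 of 54 members lower and 0 higher at an adjusted p under 0.05, where 0% of all probes tested passed as lower and 0.0216% as higher. The lowest adjusted p among members was 0.10, for Pbk. At an unadjusted p under 0.05, 40 members were lower, against 5.92% of the probes tested, and the methods' t-test gave 34 lower without adjustment, against 6.82% of the probes by that test, and 0 after it. The median log2 difference over the 55 members was -0.83, from -1.43 to 0.14, against 0.02 over all probes tested. A lower mean with BM-MCs was found in 52 members, and a higher one in Cenpm, Kif23 and Smc4. Of the probes tested, 47.4% had a log2 difference of at most 0. In 40 members every BM-MC sample lay below every control, as did 11.7% of the probes tested. On measured signals 12 members were at least 2-fold lower, against 0.749% of the probes tested. Without control SHPC replicate 3, 3 members passed as lower, and the share of all probes that passed in that fit is not given here. Within the second set of arrays, where that sample is the only control, the BM-MC samples were lower for 53 of 55 members with a median log2 difference of -0.66. They were lower for 52.6% of the probes tested, with a median of -0.02. Control SHPC replicate 3 itself stood at a median of -0.27 against the controls of the first set, and below them in 41 members. It lay below them in 43.5% of the probes tested, with a median of 0.05.

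Markers of blood and liver cells differed in the same comparison. The summed level of the 5 erythroid markers was 0.657 to 2.88 in control SHPCs, 0.357 to 0.473 with BM-MCs and 0.477 to 0.876 in MHs. Of the 5, 4 were lower in every BM-MC sample than in every control, while 0 passed limma's adjusted threshold and 3 an unadjusted p under 0.05. The 5 granulocyte markers summed to 1.15 to 1.58 in control SHPCs, 0.378 to 0.499 with BM-MCs and 0.407 to 1.51 in MHs. S100a8, S100a9 and Retnlg were the 3 that did not overlap, while Mpo, Elane and the erythroid Epb42 were too dim to be tested. Control SHPC replicate 3 had the highest Hbb level of the controls, at 1.28 against -0.68 and -0.97, and the lowest median of the mitosis genes. Of the BM-MC samples, replicate 3 also had the highest Hbb level, at -1.45 against -1.92 and -1.93, but the highest median of the mitosis genes. The 7 hepatocyte markers summed to 551 to 672 in controls and 497 to 627 with BM-MCs, with no marker apart. The 4 measured sinusoidal endothelial markers summed to 10.2 to 12.0 in controls and 12.2 to 13.3 with BM-MCs, and Stab2 and Kdr were higher in every BM-MC sample than in every control. The Kupffer cell marker Cd163 and the stellate cell marker Des were likewise higher without overlap, and the cholangiocyte marker Epcam and the lymphocyte marker Cd3d lower. The 6 lymphocyte markers summed to 0.324 to 0.346 in controls and 0.267 to 0.313 with BM-MCs. Of the bone marrow mesenchymal markers, Pdgfrb was higher and Nt5e lower in every BM-MC sample than in every control, with an unadjusted p of 0.10 and 0.30 from limma. Stab2, Kdr, Cd163, Des, Epcam and Cd3d each had an unadjusted p under 0.05 and none passed limma's adjusted threshold, while the summed Kupffer cell, stellate cell and cholangiocyte levels overlapped between the SHPC groups. The part of these cells in the lower mitosis signal was not tested.

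The 3 BM-MC samples differed among themselves more in these genes than in others. The median over members of the level relative to the control mean was -1.15 in BM-MC replicate 1, -0.81 in replicate 2 and -0.50 in replicate 3. The same median was 0.01, 0.14 and -0.18 in control SHPC replicates 1, 2 and 3, and -2.56 and -2.29 in MH replicates 1 and 2. The BM-MC medians lay apart from both other groups, although replicate 3 stood closer to the controls than to replicate 1. Over the 22969 tested probes that had values on all 8 arrays these medians lay between -0.02 and 0.04. The median SD over members was 0.37 among BM-MC samples, 0.20 among controls and 0.19 among MHs, against 0.19, 0.17 and 0.16 over those probes. BM-MC replicate 1 was the lowest of its group in 46 of 55 members and replicate 3 the highest in 41. In 36 members replicate 1 lay below replicate 2 and replicate 2 below replicate 3, as did 21.0% of those probes. In 37 members every BM-MC sample lay below every control and above both MHs, as did 1.21% of those probes.

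**Figure D3:**
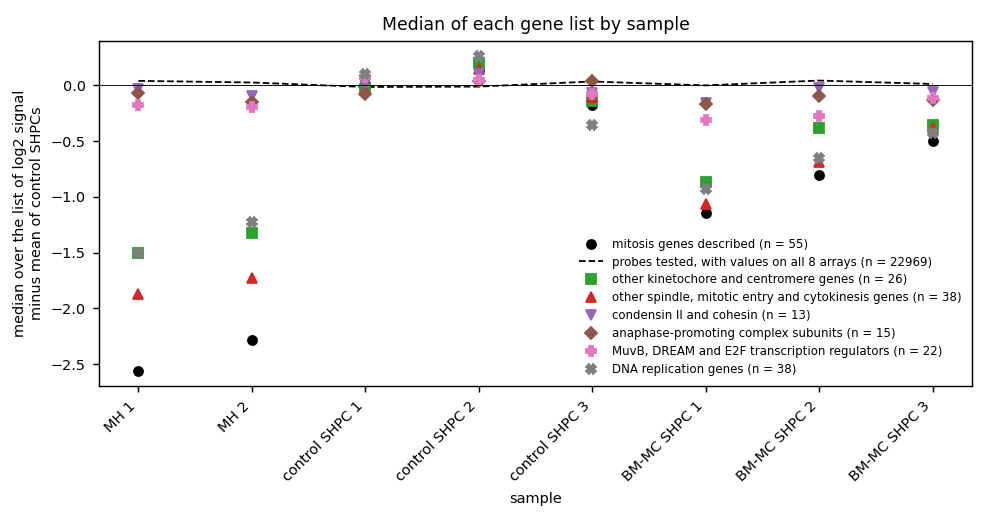
Median over each gene list of the log2 signal relative to the mean of control SHPCs, by sample. Points are lists, and the dashed line is the median of the tested probes with a value on all 8 arrays. The mitosis genes described lay at -2.56 and -2.29 in MHs and between -1.15 and -0.50 with BM-MCs, while condensin II with cohesin and the anaphase-promoting complex subunits stayed near 0.

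The third comparison sets BM-MC SHPCs against MHs, and shares samples with both others. Mitosis genes were higher in the BM-MC SHPCs. limma called 21 of 54 members higher and 0 lower, where 0.32% of the probes tested passed as higher and 0.0173% as lower. The same 4 genes dim in MHs were among the 21, and 17 of the 47 tested members well above background on an MH array passed, against 0.253% of such probes. At an unadjusted p under 0.05, 47 were higher, against 7.33% of the probes tested, and 39 were at least 2-fold higher on measured signals, against 3.34%. Their median log2 difference was 1.62 (1.28 with the dim genes at their bounds), from -0.19 to 2.77, and 54 of 55 members had the higher mean. In 47 members every BM-MC sample lay above both MHs, as did 16.1% of the probes tested. The number that passed was 0 without BM-MC replicate 2, without either MH sample, or without control SHPC replicate 1 or 2, and 28 without BM-MC replicate 1. It was also 0 with the replicate number or the set of arrays as a block, with no filter on dim probes, or in a fit of the 2 groups alone, while the median log2 difference stayed between 1.49 and 1.84 in those fits. The methods' t-test gave 39 before adjustment, against 4.39% of the probes by that test, and 0 after it. The number was again 0 with normexp correction and quantile normalization on 7 arrays, where the median over the tested members was 0.68. MHs lay in the first set of arrays and BM-MC samples in the second, so this comparison has no value within a set. The shares of all probes that passed in the refits with a sample left out are not given here.

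Mitotic entry had a median log2 difference of 3.17 between control SHPCs and MHs on the measured signals. That median counts Pbk and Melk, both dim in MHs, above their lower bounds, and would be smaller with them at the bounds. Of its 12 genes, 8 passed as higher in control SHPCs than in MHs and 7 as higher in BM-MC SHPCs than in MHs. Pbk, dim in MHs, was among both, and 0.917% and 0.32% of all probes tested passed as higher. Cdk1, the kinase that drives entry into mitosis, was at -2.50 and -2.09 in MHs, 0.83, 1.05 and 0.57 in control SHPCs, and -0.65, -0.23 and 0.27 with BM-MCs. Its 3 groups did not overlap, and it was 8.65-fold higher in control SHPCs than in MHs (log2 difference 3.11, standard error 0.28, adjusted p = 0.0043 from limma). It was 2.03-fold lower with BM-MCs (log2 difference -1.02, standard error 0.26, adjusted p = 0.18 from limma). The rn4 build of the array's annotation places this probe on chromosome 20, from 20043755 to 20043814 on the plus strand. No rn4 gene models were used here, so the exon or UTR under a probe is not given.

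Cdca3, which helps degrade the Cdk1 inhibitor Wee1, had the largest log2 difference over MHs among the brightest probes that were well above background in MHs. It was at -3.48 and -3.14 in MHs, 0.57, 0.66 and 0.34 in control SHPCs, and -1.0, -0.49 and -0.11 with BM-MCs. Control SHPCs were 14.2-fold above MHs (log2 difference 3.83, standard error 0.26, adjusted p = 0.0025 from limma; 9.27-fold with normexp), and SHPCs with BM-MCs 6.83-fold (adjusted p = 0.022 from limma). The cyclins that activate Cdk1 followed the same order. Ccna2, cyclin A2, was at -4.77 and -4.36 in MHs, -1.06, -0.99 and -1.12 in control SHPCs, and -2.51, -1.97 and -1.62 with BM-MCs. Ccnb2, cyclin B2, was at -3.74 and -3.59 in MHs, -0.34, -0.42 and -0.11 in control SHPCs, and -1.87, -0.88 and -0.48 with BM-MCs. Control SHPCs were above MHs by 11.4-fold for Ccna2 (5.93-fold with normexp) and 10.4-fold for Ccnb2, whose other tested probe gave a log2 difference of 3.96 in place of 3.38. The spread with BM-MCs was wide for Ccnb2 (SD 0.71, n = 3), whose difference from controls was -0.79 (standard error 0.35, adjusted p = 0.32 from limma).

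Pbk, a mitotic protein kinase, had the lowest difference by brightest probe among the members between BM-MC and control SHPCs. It was at -4.25, -4.14 and -4.59 in control SHPCs, -5.92, -6.00 and -5.36 with BM-MCs, and -7.59 and -7.58 in MHs. The log2 difference with BM-MCs was -1.43 (standard error 0.22, adjusted p = 0.10 from limma) and -0.64 with normexp, and only 1 of the 3 BM-MC arrays had Pbk well above background. It was not well above background in MHs, where control SHPCs were at least 3.73-fold higher (adjusted p = 0.0025 from limma on the measured signals). Between BM-MC SHPCs and MHs the call of Pbk was lost with dim spots at the floor (adjusted p = 0.26 from limma). Cdc25b, a phosphatase that activates Cdk1, behaved otherwise. Its levels were -3.68 and -3.82 in MHs, -3.10, -3.06 and -2.49 in control SHPCs, and -3.89, -3.51 and -3.53 with BM-MCs. The BM-MC samples overlapped the MHs, and the log2 difference between them was 0.11 (standard error 0.22, adjusted p = 0.85 from limma), which turned to -0.089 with scaling on the array median. The phosphatase Cdc25c and the transcription factor Foxm1 also missed the threshold against MHs, with log2 differences of 0.80 and 1.53 for control SHPCs and adjusted p = 0.14 and 0.052 from limma. The kinase Melk was not well above background in MHs, where control SHPCs were at least 4.41-fold higher (adjusted p = 0.055 from limma on the measured signals). Ccnb1, Plk1 and Aurka, which encode cyclin B1 and the polo-like and Aurora A kinases, passed at log2 differences of 3.28, 2.61 and 1.28. The call of Aurka depends on the probe, as its other tested probe gave 0.56 (adjusted p = 0.28 from limma).

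**Figure D4:**
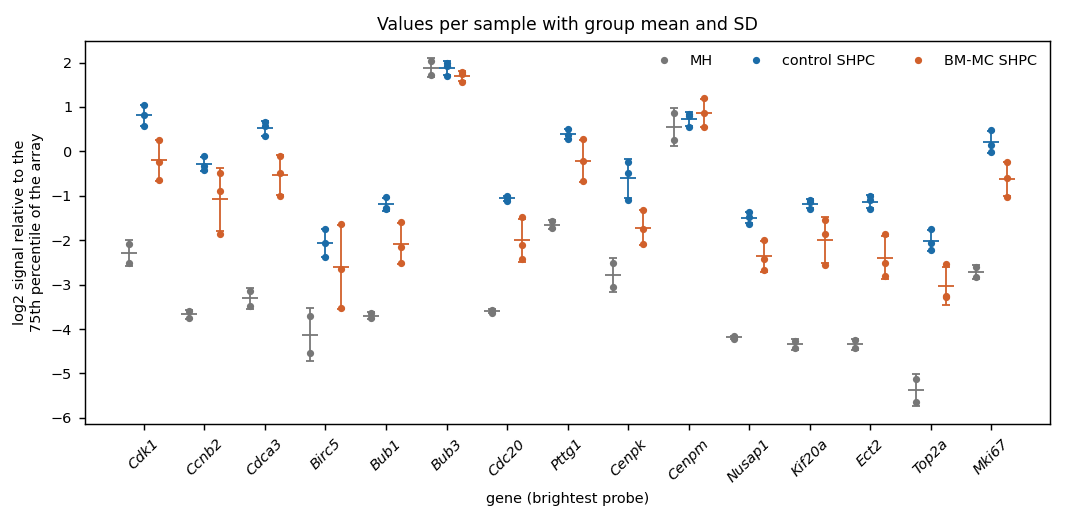
Levels of 15 members in every sample (points) with the group mean (bar) and SD (whiskers), for MHs (n = 2), control SHPCs (n = 3) and SHPCs with BM-MCs (n = 3). The y axis is log2 signal relative to the array's 75th percentile, and levels of different genes come from different probes and are not comparable. The groups overlap for Bub3 and Cenpm, and most others step from MHs up to BM-MC SHPCs and control SHPCs.

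The chromosomal passenger complex corrects faulty attachments of chromosomes to the spindle. In control SHPCs 1 of its 4 genes passed as higher than in MHs (0.917% of all probes tested did). That gene was Incenp, the scaffold of the complex, at -4.95 and -4.68 in MHs, -3.52, -3.57 and -3.61 in control SHPCs, and -4.10, -3.78 and -3.90 with BM-MCs. Control SHPCs were 2.38-fold above MHs by this probe (adjusted p = 0.0098 from limma), and 1.58-fold with normexp, where the call was lost (adjusted p = 0.072 from limma). Its other probe read -2.41 in BM-MC replicate 2 and between -5.98 and -5.31 in the other SHPC samples, so the 2 probes differ in direction between the SHPC groups. Birc5, survivin, was at -3.70 and -4.55 in MHs, -2.07, -1.75 and -2.37 in control SHPCs, and -3.53, -1.64 and -2.65 with BM-MCs. BM-MC replicate 2 exceeded every control for Birc5, and the SHPC groups overlapped. Aurkb, the kinase of the complex, was at -4.90, -5.23 and -4.94 in control SHPCs and -6.73, -6.72 and -5.12 with BM-MCs. In MHs Aurkb was at -8.24 and -7.19, not well above background, so that control SHPCs were at least 2.30-fold higher (adjusted p = 0.068 from limma on the measured signals). Cdca8, borealin, was well above background on 5 of the 7 arrays with marks for it. Its levels were -6.22 and -5.94 in MHs, -5.73, -6.07 and -5.34 in control SHPCs, and -5.85, -6.05 and -5.26 with BM-MCs, and all 3 groups overlapped.

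The spindle checkpoint holds back anaphase until every chromosome is attached. Of its 5 genes, 4 passed as higher in control SHPCs than in MHs, with Bub1b, dim in MHs, among them, against 0.917% of all probes tested. Bub1, a checkpoint kinase, was at -3.75 and -3.65 in MHs, -1.27, -1.03 and -1.29 in control SHPCs, and -2.50, -2.15 and -1.58 with BM-MCs. Its groups did not overlap, and control SHPCs were 5.67-fold above MHs (adjusted p = 0.0065 from limma; 3.62-fold with normexp). Bub1b, which binds and inhibits Cdc20, was at -8.10 and -8.39 in MHs, below the well-above-background mark, and at -4.88, -4.73 and -5.09 in control SHPCs. With BM-MCs it was at -6.18, -5.78 and -5.36, well above background on 1 of the 3 arrays. Control SHPCs were at least 2.51-fold above MHs, and BM-MC SHPCs at least 1.37-fold (adjusted p = 0.0025 and 0.024 from limma on the measured signals). Neither call of Bub1b held in every setting. The first was lost with normexp (adjusted p = 0.061 from limma) and the second with dim spots at the floor (adjusted p = 0.25 from limma). The kinase Ttk and Mad2l1, the checkpoint protein Mad2, passed at log2 differences of 2.83 and 1.70. Bub3, a partner of Bub1 that cells also use outside mitosis, was the exception. It was at 2.04 and 1.73 in MHs, 1.93, 1.99 and 1.71 in control SHPCs, and 1.57, 1.74 and 1.79 with BM-MCs. All groups overlapped, and the log2 difference of control SHPCs over MHs was -0.01 (standard error 0.15, adjusted p = 0.99 from limma). The sign of that difference turned when the replicate number or the set of arrays entered as a block.

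All 5 genes of anaphase promotion and chromatid separation, with Cdca2, dim in MHs, among them, passed as higher in control SHPCs than in MHs. Of all probes tested, 0.917% did. Cdc20, the activator of the anaphase-promoting complex, was at -3.63 and -3.57 in MHs, -1.12, -1.05 and -1.01 in control SHPCs, and -2.41, -2.12 and -1.48 with BM-MCs. It was 5.81-fold higher in control SHPCs than in MHs (adjusted p = 0.0058 from limma) and 1.92-fold lower with BM-MCs (log2 difference -0.94, standard error 0.24, adjusted p = 0.18 from limma). Pttg1, securin, was at -1.57 and -1.73 in MHs, 0.28, 0.36 and 0.51 in control SHPCs, and -0.67, -0.23 and 0.27 with BM-MCs. BM-MC replicate 3 lay just under the lowest control for Pttg1, and replicate 1 stood furthest away. Ube2c, the ubiquitin-conjugating enzyme of the complex, Cdca2, a phosphatase targeting protein, and Espl1, separase, had log2 differences of 2.92, 2.37 and 1.61 over MHs. Cdca2 was dim in MHs, and its fold was at least 4.20.

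The kinetochore joins the chromosome to spindle microtubules, and its genes differed in how far they moved. Of the 9 measured, 6 passed as higher in control SHPCs than in MHs and 3 as higher in BM-MC SHPCs, against 0.917% and 0.32% of all probes tested. Cenpw, part of the inner kinetochore, was at -4.01 and -3.82 in MHs, -0.49, -0.54 and -0.57 in control SHPCs, and -2.09, -1.53 and -1.08 with BM-MCs. The 3 control samples lay close together (SD 0.04), and control SHPCs were 10.4-fold above MHs (adjusted p = 0.0027 from limma; 6.67-fold with normexp). Cenpk, another inner kinetochore protein, was at -3.05 and -2.51 in MHs, -0.50, -0.23 and -1.10 in control SHPCs, and -2.09, -1.74 and -1.31 with BM-MCs. Nuf2, of the Ndc80 complex that grips microtubules, was at -5.95 and -5.92 in MHs, -2.90, -2.70 and -3.15 in control SHPCs, and -4.38, -4.20 and -3.70 with BM-MCs. For both, every BM-MC sample was below every control and above both MHs, with log2 differences from controls of -1.11 (adjusted p = 0.18 from limma) and -1.17 (adjusted p = 0.13). Ndc80 and Spc25, of the same complex, stood 2.67 and 2.98 above MHs on the log2 scale, and Cenpn, which reads the centromeric nucleosome, 1.57. Cenpm did not follow. It was at 0.86 and 0.25 in MHs, 0.55, 0.79 and 0.84 in control SHPCs, and 0.55, 1.19 and 0.86 with BM-MCs, with a log2 difference of 0.17 over MHs (standard error 0.24, adjusted p = 0.73 from limma). Its difference between the SHPC groups was 0.14, and -0.051 with scaling on the array median. Cenpa, the centromeric histone, had a log2 difference of 0.54 over MHs (adjusted p = 0.13 from limma) and -0.24 between the SHPC groups, which overlapped. Its other tested probe, which was dimmer, gave 1.64 over MHs (adjusted p = 0.017 from limma) and -1.13 between the SHPC groups (adjusted p = 0.10 from limma), with every BM-MC sample below every control. Cenpf was well above background in 2 of 3 control samples and in no MH or BM-MC sample and was not tested.

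Of the 8 spindle genes, 6 passed as higher in control SHPCs than in MHs, with Kif2c, dim in MHs, among them, against 0.917% of all probes tested. On the measured signals the role as a whole had a median log2 difference of 1.95, which counts Kif2c and Kif18a, both dim in MHs, above their lower bounds. Nusap1, which bundles spindle microtubules, was at -4.21 and -4.16 in MHs, -1.48, -1.36 and -1.63 in control SHPCs, and -2.68, -2.42 and -1.99 with BM-MCs. The log2 difference was 2.70 over MHs (standard error 0.21, adjusted p = 0.0025 from limma; 1.91 with normexp) and -0.87 with BM-MCs against controls (standard error 0.20, adjusted p = 0.16 from limma). Aspm, a protein of the spindle poles, was at -4.03 and -3.73 in MHs, -2.01, -1.79 and -2.01 in control SHPCs, and -2.95, -2.58 and -2.31 with BM-MCs. Neither gene had overlapping groups. The kinesins Kif2c, Kif22 and Kif11 and the assembly factor Tpx2 passed at log2 differences of 2.55, 2.54, 1.46 and 1.97, Kif2c against a signal not well above background in MHs (at least 2.39-fold). The kinesin Kif15 had 1.80 (adjusted p = 0.083 from limma). The kinesin Kif18a was not well above background in MHs, where control SHPCs were at least 3.22-fold higher (adjusted p = 0.068 from limma on the measured signals).

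Genes of the spindle midzone and of cytokinesis passed as higher than in MHs in 6 of 7 cases for control SHPCs and in 4 of 7 for SHPCs with BM-MCs. Of all probes tested, 0.917% and 0.32% did. Kif20a, a kinesin that brings passenger proteins to the midzone, was at -4.43 and -4.27 in MHs, -1.30, -1.08 and -1.14 in control SHPCs, and -2.56, -1.87 and -1.55 with BM-MCs. Ect2, the exchange factor that starts the contractile ring, was at -4.43 and -4.25 in MHs, -1.10, -1.01 and -1.29 in control SHPCs, and -2.80, -2.51 and -1.85 with BM-MCs. In control SHPCs Kif20a was 9.03-fold and Ect2 9.24-fold above MHs (adjusted p = 0.0036 and 0.0033 from limma), and 4.67-fold and 4.74-fold with normexp. Ect2 had the second lowest value with BM-MCs against controls, at -1.26 (standard error 0.25, adjusted p = 0.14 from limma). Kif23, the kinesin of the centralspindlin complex, was at -5.65 and -5.67 in MHs, -4.34, -4.01 and -3.82 in control SHPCs, and -3.49, -4.02 and -4.53 with BM-MCs. BM-MC replicate 1, lowest of its group for most members, was the highest sample for Kif23, and the SHPC groups overlapped with a difference of 0.05, which turned to -0.14 with scaling on the array median. Its partner in the complex, Racgap1, had a log2 difference of -0.79 between the same groups (adjusted p = 0.17 from limma) and of 1.95 over MHs. Prc1, Kif20b and Anln, of microtubule bundling and the contractile ring, had 2.99, 2.52 and 1.67 over MHs.

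Of the genes of chromosome structure, 3 of 5 passed as higher in control SHPCs than in MHs, against 0.917% of all probes tested. Mki67, the proliferation marker Ki-67 that coats mitotic chromosomes, was at -2.83 and -2.61 in MHs, 0.14, 0.48 and -0.01 in control SHPCs, and -1.02, -0.60 and -0.25 with BM-MCs. All 4 of its probes were tested, and they gave log2 differences between 2.92 and 3.08 over MHs and between -0.83 and -0.53 with BM-MCs against controls. Top2a, the topoisomerase that untangles sister chromatids, was at -5.63 and -5.12 in MHs, -2.07, -1.75 and -2.21 in control SHPCs, and -3.28, -3.27 and -2.55 with BM-MCs. It was 10.3-fold above MHs in control SHPCs (adjusted p = 0.0033 from limma; 3.80-fold with normexp). Smc2, a core condensin subunit, was at -3.11 and -2.89 in MHs, -1.70, -1.63 and -2.24 in control SHPCs, and -2.90, -2.95 and -2.59 with BM-MCs. The BM-MC samples thus overlapped the MHs for Smc2, with a log2 difference of 0.18 (standard error 0.22, adjusted p = 0.73 from limma) that was -0.013 with scaling on the array median. Ncaph, the condensin subunit that closes the ring, had 2.65 over MHs and -0.63 with BM-MCs.

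The partner of Smc2 in condensin, Smc4, gave a different answer with each of its 2 probes. The brighter, on chromosome 2 from 159001380 to 159001439 in rn4, read 6.44 and 6.46 in MHs, 6.28, 6.14 and 6.63 in control SHPCs, and 6.27, 6.64 and 6.56 with BM-MCs. The other, from 159013946 to 159014005, read -4.29 and -4.45 in MHs, -2.87, -2.94 and -2.96 in control SHPCs, and -3.71, -3.91 and -3.15 with BM-MCs. The groups overlapped by the first probe, and by the second control SHPCs exceeded MHs by a log2 difference of 1.45 (adjusted p = 0.030 from limma). The level of Smc4 is therefore uncertain. Of the 13 members with several tested probes, all probes had one direction in 12 for control SHPCs against MHs, 13 for BM-MC SHPCs against MHs and 11 between the SHPC groups. The probes of a gene differed in the call against MHs for 5 of the 13 with control SHPCs (Aurka, Cenpa, Cenpk, Incenp and Smc4) and for 3 with BM-MC SHPCs (Ccna2, Cenpw and Racgap1).

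**Figure D5:**
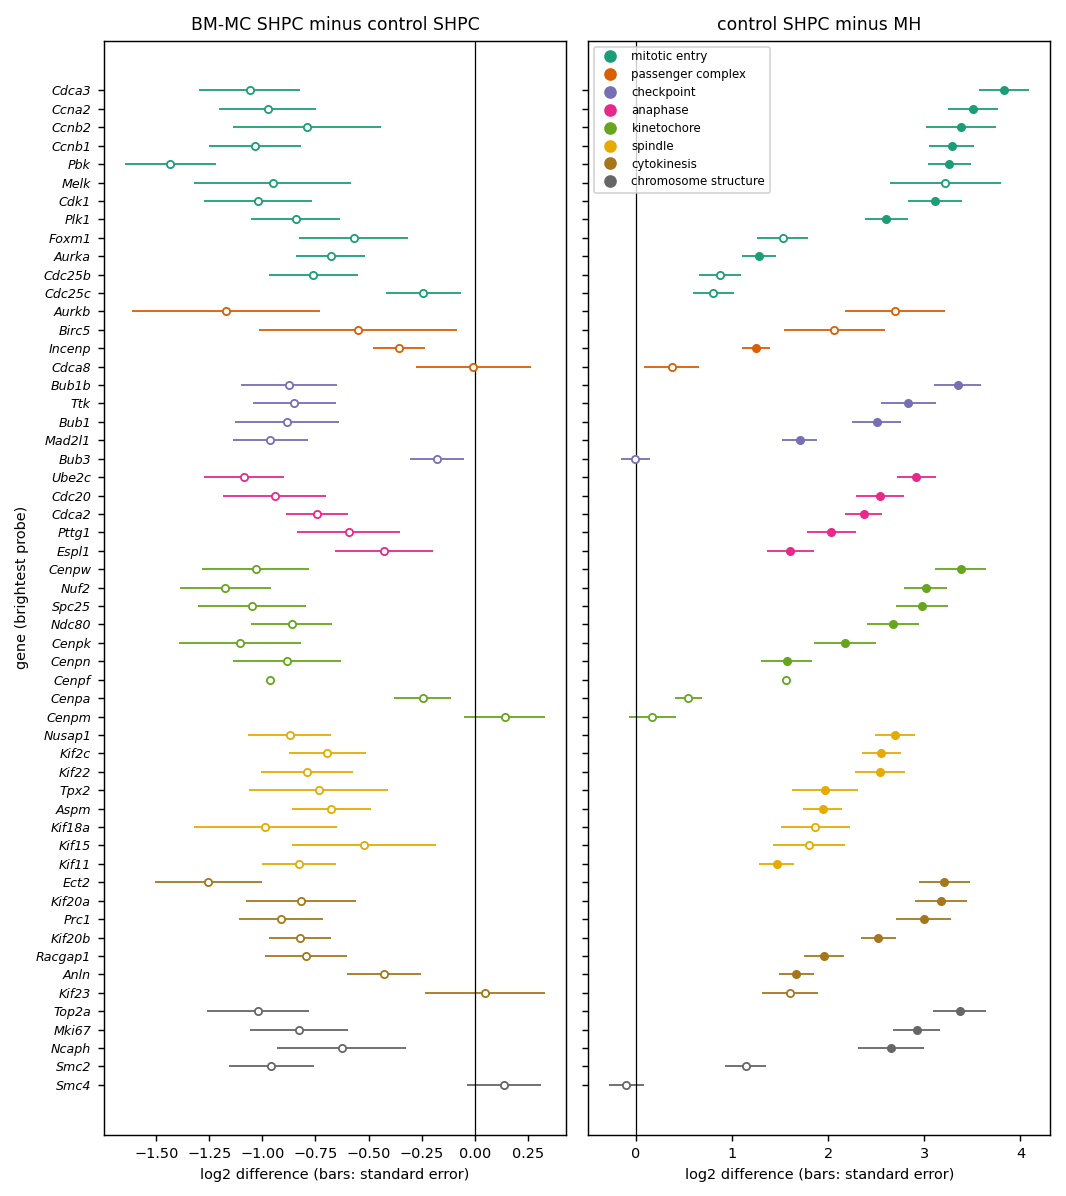
Log2 difference of each member on measured signals, with its standard error, for BM-MC SHPCs minus control SHPCs (left) and control SHPCs minus MHs (right). Colours are roles, filled points have an adjusted p under 0.05 from limma, and Cenpf, which was not tested, has no bar. No point is filled on the left, where 52 of 55 lie below 0, and 39 are filled on the right.

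Further genes of the same machinery were read from lists of known components. Among 26 other measured kinetochore and centromere genes, of which 20 were tested, 9 passed as higher (0.917% of all probes tested did) and 0 as lower in control SHPCs than in MHs, among them Ska1 of the microtubule-binding Ska complex, Cenpq and Mis18a, with log2 differences of 4.28, 2.96 and 2.90. Among 38 other genes of mitotic entry, spindle and cytokinesis, of which 31 were tested, 20 passed as higher and 1 as lower. Cdkn3, a phosphatase of cyclin-dependent kinases, the kinase Nek2 and the spindle protein Knstrn were among those higher, at 3.81, 3.13 and 3.19. The lower one was Lmnb1, lamin B1 of the nuclear envelope, at -1.42 (adjusted p = 0.045 from limma). The median differences of these lists were 1.43 and 1.72 over MHs, and -0.53 and -0.66 for BM-MC SHPCs against control SHPCs, where 0 genes passed limma's adjusted threshold. There 10 of the 20 and 21 of the 31 tested were lower at an unadjusted p under 0.05, against 5.92% of all probes tested. Of the 26 and 38 measured, 13 and 24 lay below every control, against 11.7% of the probes tested.

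Components and regulators that cells also use outside mitosis had list medians near that of all probes. Of 13 measured condensin II and cohesin genes 1 passed as higher in control SHPCs than in MHs, where 0.917% of all probes tested did. It was Ncapg2 of condensin II at 1.09, and the list's median was 0.03. Of the 15 measured subunits and partners of the anaphase-promoting complex 0 passed in limma's 3 comparisons (3 were higher than in MHs in control SHPCs at an unadjusted p under 0.05, against 8.21% of all probes tested), and their median over MHs was 0.10. Of 22 regulators of the MuvB, DREAM and E2F group, 20 of them tested, 0 passed either (5 higher and 2 lower at an unadjusted p under 0.05 over MHs, the 5 against the same 8.21%), with medians of 0.14 over MHs and -0.18 for BM-MC SHPCs against control SHPCs. DNA replication genes, which act in S phase, numbered 38, of which 32 were tested and 14 passed as higher in control SHPCs than in MHs and 0 as lower, against 0.917% and 0.216% of all probes tested. Among them Ccne2, Rrm2 and Mcm6 had log2 differences of 3.06, 2.99 and 2.80. Their median was 1.36 over MHs and -0.69 for BM-MC SHPCs against control SHPCs, where 36 of 38 had the lower mean with BM-MCs, 0 passed limma's adjusted threshold and 23 were lower at an unadjusted p under 0.05, against 5.92% of all probes tested. These differences between lists were not tested.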

How the data were processed

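Expression in 2 MH, 3 control SHPC and 3 BM-MC SHPC samples was measured on 1-colour Agilent SurePrint rat arrays. The authors deposited scanner intensity files from Agilent Feature Extraction 10.7 and a value table with the same background-corrected processed signal intensity per spot. The scanner file of control SHPC replicate 2 held 20903 of 62976 features, so signals of all samples were taken from the value table. Here log2 intensities minus each array's 75th percentile were computed from the deposited intensities, outlier spots were left out and spots of a probe were averaged. The test kept 23111 of 45598 probes, those marked well above background in 3 or more of the 7 samples whose marks are complete. Tests were run with limma 3.58.1 in R 4.3.3 (lmFit, eBayes, Benjamini-Hochberg, threshold 0.05), on the 6 SHPC samples alone for BM-MC against control SHPCs and on all 8 samples for both comparisons with MHs, and were tested on simulated data. Arrays have no read depth, and their number limits the precision.

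The members, gene lists and tests were chosen with earlier results of these data known. Values in every sample are given for the 2 brightest members of each role and, in each comparison, the 5 members with the largest and the 3 with the smallest absolute log2 difference. Other probes of a gene, other-list genes and members are given by counts or differences. A probe not well above background in a whole group has a bound, from the lowest signal well above background on each array. All arrays shared 1 slide and 1 scan, and the 2 sets of arrays on it were tried as a block. The sources used here do not say whether replicate numbers pair the samples. The correlation of deviations between same-numbered samples ran from -0.13 to 0.17. Between control and BM-MC SHPCs it was 0.13, 0.078 and 0.17 for replicates 1, 2 and 3, and from -0.15 to 0.082 for different numbers. With 2 MH samples the deviations mirror each other, so the signs there carry no information. These values do not settle whether SHPC samples are paired by number. Alternatives changed scaling, background correction, filter, floor, outlier spots, probe per gene, test, blocks and samples.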

Additional observations from a re-analysis of the deposited data

How the results depend on the processing

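The median log2 difference kept its sign in every alternative tried. For BM-MC SHPCs against control SHPCs it was -0.83 over the 54 tested members and -0.57 with normexp correction and quantile normalization on 7 arrays, and ran from -1.02 to -0.67 with a sample left out. Members called lower numbered 0, but 1 without scaling, 34 by the methods' t-test unadjusted and 0 to 3 with a sample left out (3 without control SHPC replicate 3). For control SHPCs against MHs the median of 2.51 was 2.05 with dim spots at the floor and 1.19 with normexp, and 2.29 to 2.56 with a sample left out. The 39 calls became 0 by the methods' t-test with Benjamini-Hochberg adjustment and 20 to 44 with a sample left out. For BM-MC SHPCs against MHs the median of 1.62 was 1.30 at the floor and 0.68 with normexp, and 1.49 to 1.78 with a sample left out. The 21 calls became 13 with median scaling, 1 with quantile normalization, 39 by the t-test unadjusted, 0 to 28 with a sample left out, and 0 each with no filter, normexp, only the groups compared, the replicate block, the slide set block and the adjusted t-test. The replicate block gave 0 calls between the SHPC groups and 33 of control SHPCs against MHs, with medians of -0.83, 2.40 and 1.60 in the 3 comparisons. Since the samples are known to share only a number, these are not read as paired values. Control SHPC replicate 2 correlated better with BM-MC replicate 1 (0.082) than with its own number (0.078). Control SHPC replicates 1 and 3 correlated best with the BM-MC sample of their own number (0.13 and 0.17). The 44 related genes called over MHs were 27 with no filter. With a sample left out, or with scaling or a block changed, the share of all probes that passed is not given here. The cause of these changes was not tested.

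Scaling on the array median moved every difference between the SHPC groups by the same amount. Differences of 8 named genes turned sign. Between the SHPC groups, Kif23 was at -0.14 with median scaling, -0.030 with normexp, -0.13 with quantile normalization, -0.19 with the slide set block and within the second set, and -0.21 to 0.31 with a sample left out. Smc4 was at -0.052 with median scaling, -0.14 with the slide set block and within the second set, and -0.26 as the median of its probes. Cenpm was at -0.051 with median scaling and -0.022 to 0.30 with a sample left out. Cdca8 was at 0.11 at the floor, 0.0018 without scaling and -0.23 to 0.18 with a sample left out, and Incenp was at 0.30 as the median of its probes. For control SHPCs over MHs, Bub3 was at 0.014 with the replicate block, 0.079 with the slide set block and within the first set, and -0.16 to 0.15 with a sample left out. Smc4 was at 0.011 with normexp, 0.67 as the median of its probes and -0.24 to 0.0032 with a sample left out, and Cenpm at -0.13 to 0.47. For BM-MC SHPCs over MHs, Smc4 was at -0.16 with median scaling, -0.041 without scaling, -0.048 with the replicate block, -0.38 with the slide set block and -0.036 to 0.15 with a sample left out. Cdc25b was at -0.089 with median scaling, -0.070 with normexp, -0.046 with quantile normalization, -0.018 with the replicate block and -0.48 with the slide set block. With the slide set block Bub3 was at 0.071 and Cdca8 at -0.20, and Smc2 was at -0.013 with median scaling.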
